A study of Mus musculus with 6 samples.

Results

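The unfolded protein response and its stress-induced partners were examined in FXR ChIP-seq of mouse liver through 10 genes, Ern1, Eif2ak3, Atf6, Creb3l3, Xbp1, Atf4, Atf3, Ddit3, Trib3 and Hspa5. Their peaks were the rows of the deposited peak tables in which the authors had named one of these genes, usually as the gene with the nearest transcription start site (TSS). By this rule 23 of 20040 WT peaks and 15 of 12495 LKO peaks belonged to the group, and they formed 26 distinct regions when overlapping peaks were counted once. FXR peaks carried the name of 7 of the 10 genes in WT and of 7 in LKO, and of 8 in either list. No peak was named for Trib3 or Hspa5. As a background, 34.4% of 21900 RefSeq protein-coding genes were named for a WT peak and 26.3% for an LKO peak.

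FXR ChIP-seq was done on liver of male C57BL/6 mice of 2 genotypes, with 2 ChIP libraries and 1 input library each. WT mice were Bcl6 fl/fl, with floxed Bcl6 alleles and no Cre. LKO mice carried the same floxed alleles and the albumin-Cre transgene, used to delete Bcl6 in hepatocytes. Bcl6 in other liver cells was not examined. No agent was given according to the labels, and age was not given in the sources used here. The labels do not say that the libraries came from separate mice, so the spread between them may be technical. A ChIP table holds no expression values, so neither liver markers nor the deletion of Bcl6 could be checked in these files, and a peak says nothing of whether its named gene was transcribed.

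The endoplasmic reticulum (ER) senses unfolded proteins through membrane proteins that each start a branch of the response. IRE1 (Ern1) splices the mRNA of Xbp1, PERK (Eif2ak3) phosphorylates the translation factor eIF2 so that ATF4 is made, and ATF6 is cut by Golgi proteases to release a transcription factor. Creb3l3 encodes CREBH, a membrane-bound factor of liver and intestine that is cut in the same way and controls lipid and acute-phase genes. FXR is the bile acid receptor, which binds DNA with RXR, often at an inverted repeat of the nuclear receptor half-site with a 1-base spacer, called IR1.

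The peaks below are shown because they were the strongest WT peaks at their genes or, for Eif2ak3, the only one, with the exon 5 peak of Creb3l3 added for its IR1 match. Letters are the plus strand of GRCm38.p6, which has the coordinates of mm10, and capitals mark the best match to IR1 where it had at most 2 mismatches.
Creb3l3, exon 4, chr10:81091731-81091941: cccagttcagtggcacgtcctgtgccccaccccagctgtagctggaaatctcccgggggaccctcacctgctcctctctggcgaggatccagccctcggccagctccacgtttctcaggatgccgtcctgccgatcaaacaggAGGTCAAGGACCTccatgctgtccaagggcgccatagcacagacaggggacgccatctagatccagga
Creb3l3, exon 5, chr10:81091050-81091260: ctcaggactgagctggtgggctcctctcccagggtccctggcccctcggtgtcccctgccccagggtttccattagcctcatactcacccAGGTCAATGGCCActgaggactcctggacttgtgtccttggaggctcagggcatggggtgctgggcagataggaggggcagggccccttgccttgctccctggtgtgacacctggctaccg
Xbp1, upstream, chr11:5505904-5506114: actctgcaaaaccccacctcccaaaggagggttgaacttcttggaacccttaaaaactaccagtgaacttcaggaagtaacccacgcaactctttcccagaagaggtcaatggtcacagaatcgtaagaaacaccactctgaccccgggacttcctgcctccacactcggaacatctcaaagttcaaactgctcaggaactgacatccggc
Atf6, intron 6, chr1:170839805-170840015: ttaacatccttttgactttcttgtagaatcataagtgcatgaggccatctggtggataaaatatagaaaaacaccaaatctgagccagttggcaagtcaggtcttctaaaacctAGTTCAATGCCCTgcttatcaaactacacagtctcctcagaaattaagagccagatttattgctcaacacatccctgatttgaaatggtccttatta
Atf3, intron 1, chr1:191182368-191182578: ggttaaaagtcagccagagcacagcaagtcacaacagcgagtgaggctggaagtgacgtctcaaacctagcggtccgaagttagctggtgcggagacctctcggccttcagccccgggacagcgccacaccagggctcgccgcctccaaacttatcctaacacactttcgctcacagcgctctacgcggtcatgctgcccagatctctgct
Eif2ak3, promoter, chr6:70843977-70844187: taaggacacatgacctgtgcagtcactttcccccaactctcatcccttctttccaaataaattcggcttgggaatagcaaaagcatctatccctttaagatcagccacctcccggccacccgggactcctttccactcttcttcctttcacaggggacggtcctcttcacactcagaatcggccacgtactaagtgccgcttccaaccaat

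Both Creb3l3 peaks and the Atf6 peak held such a match, whereas the Xbp1, Atf3 and Eif2ak3 peaks did not. The strongest WT peaks of Ern1 and Atf4 are not shown, and their best matches had 4 mismatches each. All peaks of a list had the same length, 211 bp in WT and slightly less in LKO, so length did not set the values of different genes apart. Input, GC content and repeats differed between peaks, and no adjustment was made for them here.

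Values in the tables are regularized log2 tags per peak. The strength of a peak was the mean of its 2 ChIP values, given as a percentile of its own list. To set WT beside LKO, the median over the 9918 shared peaks, which overlap by at least 1 bp, was subtracted in each library. This relative level is a description and was not tested, because the tables had been normalized separately. Depth was uneven, with 2883717 tags in WT replicate 2 where the other ChIP libraries held from 19022618 to 22637613. At the 23 WT peaks of the group, estimated tags ranged from 14.5 to 138.4 in replicate 1 and from 5.16 to 33.2 in replicate 2. The 15 LKO peaks held 24.8 to 112.5 estimated tags in replicate 1 and 15.6 to 91.0 in replicate 2. Requiring at least 10 estimated tags in both libraries left 15 of the 23 WT peaks and all 15 LKO peaks.

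**Figure D1:**
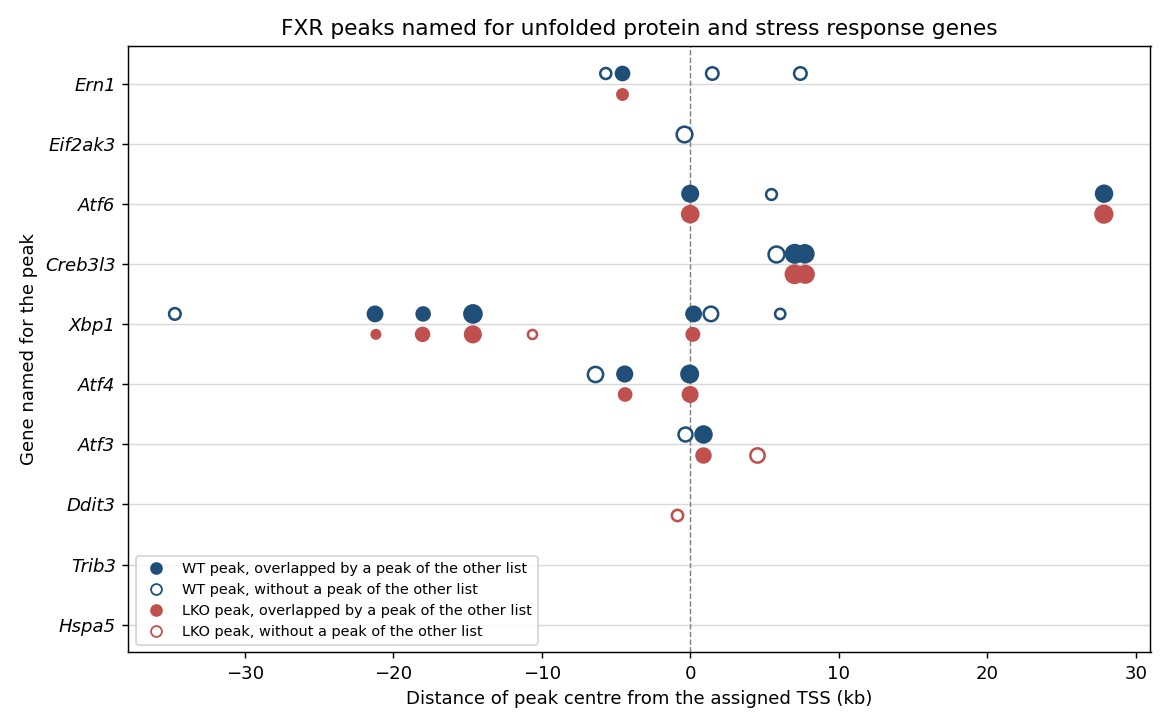
Distance in kb of each peak centre from the TSS the authors assigned (x axis) for the 10 genes (y axis). Blue circles are WT and red circles LKO peaks, filled where the other list has an overlapping peak, and larger circles are stronger peaks by percentile of their list; Xbp1 holds the most peaks, and Trib3 and Hspa5 hold none.

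Among the sensors, Creb3l3 carried the strongest FXR peak of the whole group in both genotypes. This peak over exon 4, at chr10:81091731-81091941, had log2 values of 6.13 and 6.79 in the WT ChIP libraries and 1.14 in the WT input. Its LKO counterpart had 6.49 and 6.09 in the ChIP libraries and 0.18 in the input. It stood at percentile 91.8 of the WT list and 89.5 of the LKO list. Relative to the shared peaks of each library its levels were 1.12 and 1.26 in WT, and 1.44 and 1.24 in LKO. The LKO and WT ranges overlapped, and the difference of 0.16 was close to the pooled SD of 0.12 (n = 2 libraries each). The IR1 match of this peak, AGGTCAAGGACCT at chr10:81091874-81091886, had 1 mismatch, and no other peak of the group had so few.

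The peak over exon 5 of Creb3l3, centred 681 bp from the first, reached percentile 86.9 in WT and 83.1 in LKO. Its relative levels were 0.91 and 0.57 in WT against 1.08 and 0.72 in LKO, which overlap, and the difference of 0.16 became -0.016 without WT replicate 2. Its match AGGTCAATGGCCA lay at chr10:81091140-81091152 with 2 mismatches. A peak in intron 1, at chr10:81092983-81093193, was in the WT list only, with log2 values of 4.96 and 5.18 and a percentile of 67.1. The authors placed these peaks 7036, 7717 and 5784 bp downstream of the Creb3l3 TSS. RefSeq also lists a transcript that starts 6281 bp inside the gene, at position 81092591. The WT-only peak lay 497 bp upstream of that start, and the exon peaks 755 and 1436 bp downstream of it.

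Atf6 was the gene at which LKO stood furthest above WT. At the intron 6 peak, 27861 bp inside the gene, relative levels were 0.20 and -0.014 in WT and 0.94 and 0.87 in LKO. The LKO libraries were both above the WT libraries, by 0.81 on average with a pooled SD of 0.11. This difference exceeded 89.4% of those at all shared peaks. At the Atf6 promoter, 4 bp upstream of the TSS at chr1:170867670-170867880, WT had 0.30 and -0.43 and LKO 0.44 and 0.71. LKO was again above both WT libraries, by 0.64 with a pooled SD of 0.39, or by 0.28 when the shallow WT replicate 2 was left out. The deposited log2 values at the intron peak were 5.21 and 5.52 in WT and 5.98 and 5.72 in LKO, and at the promoter 5.31 and 5.11 in WT and 5.48 and 5.56 in LKO. Divided instead by the mean library total of each genotype, input included, the differences became -0.34 at the intron peak and -0.51 at the promoter. All shared peaks had a median of -1.12 on this scale, which shifts every peak of a genotype by the same amount. On the deposited scale LKO remained above WT, by 0.48 and 0.31. Input values at the intron peak were -0.31 in WT and 1.70 in LKO, at percentiles 57.4 and 86.0 of the inputs of their lists. At the promoter the inputs were 1.08 in WT and 0.054 in LKO. The median peak held 0.56 estimated input tags in the WT list and 0.40 in the LKO list, so input values rest on few tags. Whether the inputs bear on these differences was not tested. The intron 6 match to IR1 was AGTTCAATGCCCT with 2 mismatches, and the promoter peak had none within that limit. A weaker peak in intron 1 of Atf6, 5410 bp from the TSS and at percentile 25.7, was in the WT list only.

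The PERK gene Eif2ak3 had a WT peak and no LKO peak. It lay 433 bp upstream of the TSS at chr6:70843977-70844187, with log2 values of 4.34 and 5.67 and an input value of -0.38. WT replicate 2 was the higher library, as it was at 84.7% of all WT peaks, and relative levels were -0.67 and 0.13. From replicate 2 only 15.2 tags were estimated, against 40.1 from replicate 1. The peak stood at percentile 64.9 of the WT list, and of the WT peaks of similar strength 63.2% had an LKO counterpart. The nearest LKO peak was 30.2 kb from the gene and was named for Rpia.

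Ern1 had 4 WT peaks and 1 LKO peak, all of moderate or low strength. The shared peak lay 4585 bp upstream of the TSS at chr11:106492276-106492486, and all of its bases are soft-masked as repeats in the assembly. Deposited log2 values there were 4.37 and 4.78 in WT and 4.57 and 4.001 in LKO, and relative levels were -0.65 and -0.75 in WT and -0.47 and -0.85 in LKO. The genotypes overlapped, with a difference of 0.041 and a pooled SD of 0.20. The WT-only peaks lay 5687 bp upstream of the TSS and 1485 and 7414 bp inside the gene, at percentiles 27.1, 37.7 and 38.1. Other peaks inside the Ern1 gene were named by the authors for its neighbour Icam2, of which the strongest reached percentile 84.8 in WT and 67.4 in LKO.

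Among the transcription factors of the branches, Xbp1 had the most peaks. It had 7 in WT and 5 in LKO, and at least as many were named for 4.08% of the 9025 genes with a WT peak and for 5.25% of the 6877 genes with an LKO peak. Of these, 4 pairs were shared. The strongest, 14632 bp upstream of the TSS at chr11:5505904-5506114, had log2 values of 5.46 and 6.72 in WT and 5.64 and 4.98 in LKO, with inputs of -0.21 and 0.021. It stood at percentile 87.8 in WT and 71.4 in LKO. Relative levels were 0.44 and 1.18 in WT and 0.60 and 0.14 in LKO, so the libraries overlapped. The difference of -0.45 was about the pooled SD of 0.44, and it was -0.074 without WT replicate 2. The sequence AGGTCAATGGTCA in this peak was its nearest approach to IR1, with 3 mismatches.

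At the Xbp1 start, a peak over the 5′ untranslated part of exon 1, centred 227 bp downstream of the TSS at chr11:5520763-5520973, had log2 values of 4.56 and 5.11 in WT and 4.67 and 4.50 in LKO. Relative levels were -0.45 and -0.43 in WT and -0.37 and -0.35 in LKO. LKO was above WT by 0.078 with a pooled SD of 0.016, a small difference that was above 0 only when shared peaks were the reference. The WT input at this peak was 2.27, above the 95th percentile of WT input values, 1.85, whereas the LKO input was -0.088. No other peak of the group had an input above the 95th percentile of its list. The inputs at the Xbp1 start also rest on few tags.

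This Xbp1 peak held a match to the ER stress response element, the sequence that ATF6 recognizes with NF-Y, searched as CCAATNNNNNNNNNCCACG on both strands. The match is shown because it occurred in so few peaks: CCAATCGCGGACGGCCACG at chr11:5520906-5520924, from 265 to 283 bp downstream of the TSS. Exact matches up to 100 bp from the peak centre were found in 4 of 20040 WT peaks and 2 of 12495 LKO peaks. The LKO peak at the Xbp1 start ended inside this sequence and covered 14 of its 19 bases.

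The remaining Xbp1 peaks were spread along the upstream region and the gene. Shared peaks 21224 and 17985 bp upstream had relative levels of -0.76 and -0.12 in WT and -0.53 and -1.30 in LKO for the farther one, and of -0.33 and -1.14 in WT and -0.24 and -0.30 in LKO for the nearer. LKO was above both WT libraries at the nearer one, by 0.46 with a pooled SD of 0.41, but by 0.055 when the shallow WT replicate 2 was left out. WT-only peaks lay 34701 bp upstream and 1391 and 6056 bp downstream of the TSS, at percentiles 31.3, 54.7 and 22.2, and an LKO-only peak 10651 bp upstream at percentile 15.2.

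Atf4, the factor made when PERK is active, had 3 WT peaks and 2 LKO peaks. The promoter peak, 39 bp upstream of the TSS at chr15:80255040-80255250, had log2 values of 5.00 and 6.26 in WT and 4.86 and 5.14 in LKO. Relative levels were -0.012 and 0.72 in WT and -0.18 and 0.29 in LKO. The groups overlapped, the difference was -0.30 with a pooled SD of 0.44, and it turned to 0.069 without WT replicate 2. Peaks 4413 and 6420 bp upstream lay in the 3′ untranslated region and an intron of Mief1, the gene next to Atf4. The first was shared, with relative levels of -0.50 and -0.22 in WT and -0.31 and -0.48 in LKO. The second was WT-only, at percentile 60.6, with an IR1 match AGGCCACAGACCT of 2 mismatches.

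The downstream factors had few peaks. Atf3, a stress-induced factor of the ATF family, had a shared peak in intron 1, 860 bp downstream of the TSS, with log2 values of 5.27 and 5.52 in WT and 4.77 and 4.97 in LKO. Relative levels were 0.25 and -0.012 in WT and -0.28 and 0.12 in LKO, which overlap, with a difference of -0.20 and a pooled SD of 0.24. A peak at the Atf3 promoter, 320 bp upstream of the TSS at chr1:191183548-191183758, was in the WT list only, with log2 values of 4.02 and 5.14. An Atf3 peak 4495 bp inside the gene was in the LKO list only, with 4.69 and 4.91. Ddit3, which encodes the pro-apoptotic factor CHOP, had no WT peak and an LKO peak 874 bp upstream of its TSS at chr10:127289817-127290021, with 4.70 and 3.94. That peak lies within the neighbouring gene Mbd6, and a WT peak named for Mbd6 was centred 531 bp from it, without overlap. The WT Mbd6 peak, chr10:127289283-127289493, was itself overlapped by an LKO peak named for Mbd6, chr10:127289257-127289461. The LKO Ddit3 peak was thus separate from that pair. When peaks up to 500 bp apart were also counted as matched, the Ddit3 peak was the only one of the group that gained a partner. That partner was the WT Mbd6 peak, which already had its own LKO counterpart.

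For Trib3, a pseudokinase induced by ATF4 and CHOP, the absence of a named peak depended on the assignment of genes. Both lists had a strong peak close to it, at percentile 94.1 in WT, chr2:152334365-152334575, and 93.8 in LKO, at a distance of 2.85 and 2.87 kb from the gene, and the authors named it for Rbck1. For Hspa5, the ER chaperone BiP, the nearest WT peak was 51.6 kb away and the nearest LKO peak 142.6 kb away, so no peak was near the gene by either reading. Counting all peaks within 10 kb of the bodies of the 10 genes, whatever gene was named, gave 28 WT and 18 LKO peaks.

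Of the 23 WT peaks, 12 were overlapped by an LKO peak (52.2%, 95% Wilson interval 33.0% to 70.8%), where 49.5% of all WT peaks were. Of the 15 LKO peaks, 12 were overlapped by a WT peak (80.0%, 54.8% to 93.0%), where 79.4% of all LKO peaks were. These shares were near the background of the lists. The intervals cover counting over peaks and not variation between mice, and peaks were called on pooled libraries. Stronger peaks had a counterpart more often in each list, and the shares of all peaks in each of 10 classes of strength would give 12.8 matched WT peaks and 12.3 matched LKO peaks. The 11 WT-only peaks ranged from percentile 22.2 to 67.1 with a median of 38.1, and the 12 matched ones from 47.7 to 91.8. The 3 LKO-only peaks, at Ddit3, Xbp1 and Atf3, stood at percentiles 28.9, 15.2 and 52.6.

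**Figure D2:**
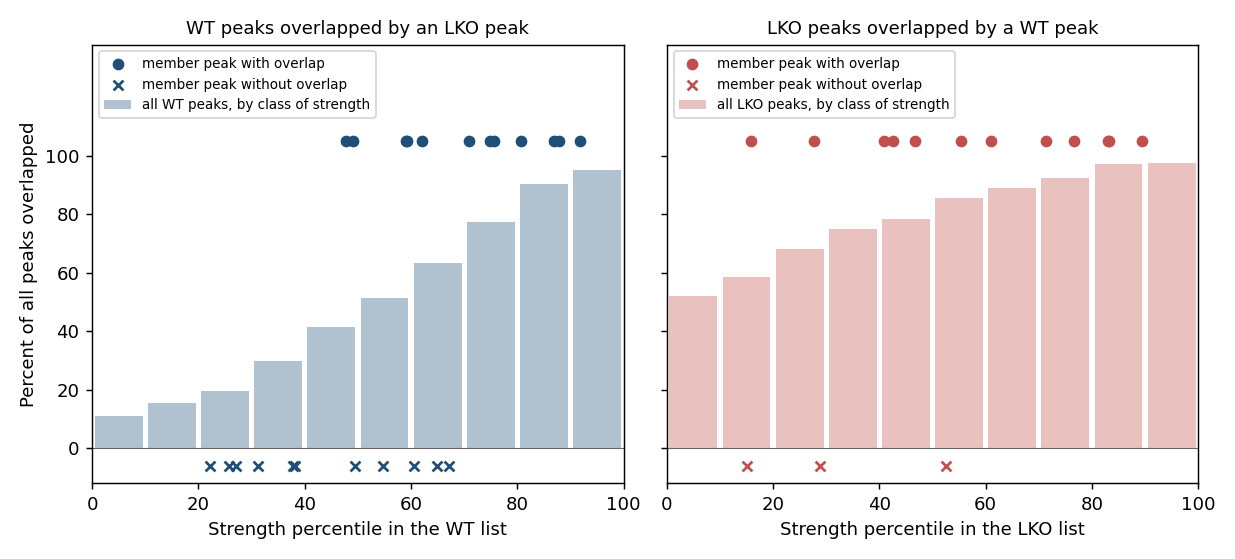
Percent of all peaks that the other list overlaps (bars, y axis) by class of peak strength (x axis, percentile in the list), for WT (left) and LKO (right). Circles above the bars and crosses below them mark the strength of the peaks of the 10 genes with and without an overlap; the crosses in WT lie at percentiles of 67.1 and less.

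At the 12 shared peaks, the median difference of LKO minus WT was 0.059, beside 0.026 at all 9918 shared peaks, and single peaks ranged from -0.48 to 0.81. Both LKO libraries lay above both WT libraries at 4 of 12 peaks, where this held for 29.8% of all shared peaks. The 4 were those in Atf6 intron 6, at the Atf6 promoter, 17985 bp upstream of Xbp1 and at the Xbp1 start. Without WT replicate 2 their differences were 0.70, 0.28, 0.055 and 0.091. Both LKO libraries lay below both WT libraries at 0 of 12, where this held for 25.2% of all shared peaks. In the other 8 the libraries overlapped. The middle part of the distribution of all shared peaks, from the 25th to the 75th percentile, ran from -0.32 to 0.41. The Atf6 peaks and the Xbp1 peaks 17985, 14632 and 21224 bp upstream fell outside it. By definition this range leaves out as many of all shared peaks as it holds, so a place outside it is common.

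**Figure D3:**
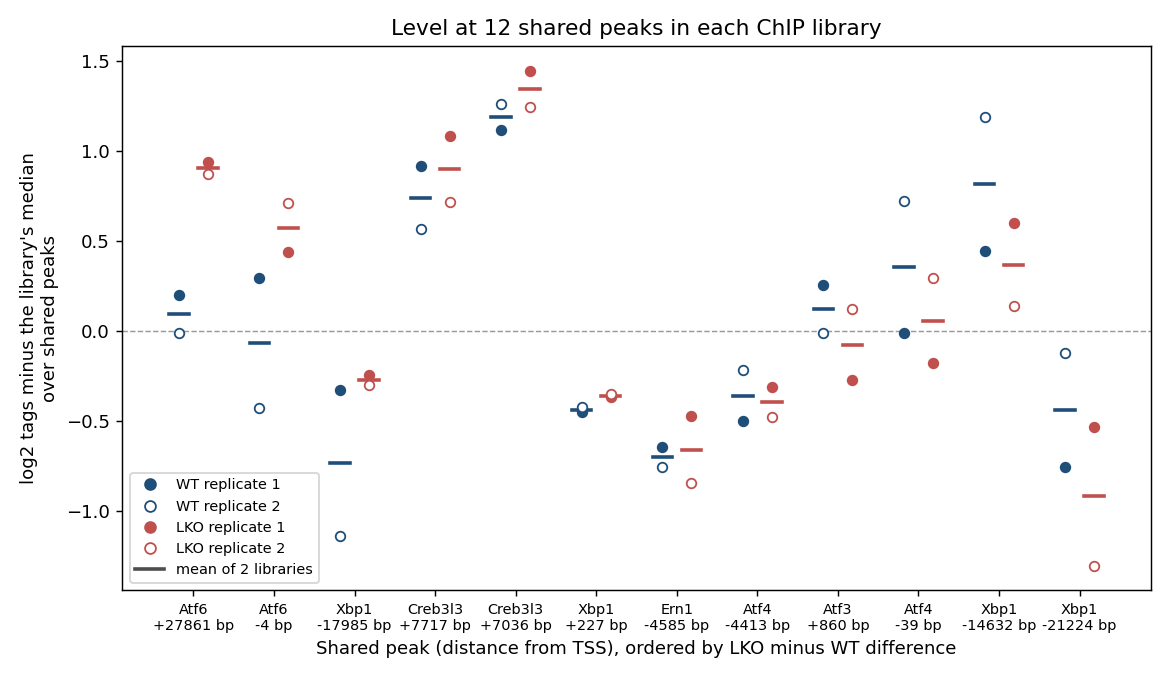
Level at each of the 12 shared peaks (x axis, with distance from the TSS) as log2 tags minus the median of all shared peaks in the same library (y axis), ordered by the LKO minus WT difference. Filled and open circles are replicates 1 and 2, blue for WT and red for LKO, and bars are means of 2 libraries; the groups separate most at the Atf6 peak 27861 bp from its TSS.

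Peaks within 1 kb of the assigned TSS made up 6 of 23 in WT (26.1%, beside 16.7% of all WT peaks) and 5 of 15 in LKO (33.3%, beside 16.6%), with no test. An IR1 match with at most 2 mismatches to AGGTCANTGACCT, on 12 scored bases and within 100 bp of the centre, occurred in 5 of 23 WT peaks (21.7%, 9.66% to 41.9%) and in 11.8% of all WT peaks. In LKO it occurred in 3 of 15 (95% interval 7.05% to 45.2%) and in 16.2% of all peaks. Both intervals hold the share of the whole list. The 3 LKO peaks were the shared peaks of Creb3l3 and Atf6. The other 2 WT peaks were WT-only, at Atf4 and, with AGGGCAGGGACCT, beyond the end of Xbp1. The half-site AGGTCA alone, which is also part of IR1, was present in 5 of 23 WT peaks (9.66% to 41.9%) against 40.3% of all WT peaks. In LKO it was present in 4 of 15 (10.9% to 52.0%) against 41.3% of all LKO peaks. These intervals also hold the share of the whole list.

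Other elements of the response were also searched. The cyclic AMP response element TGACGTCA, the XBP1 and ATF6 element core TGACGTGG and the ATF4 element core TGATGCAA had exact matches in 0 of 23 WT and 0 of 15 LKO peaks. They occurred in 0.41%, 0.38% and 1.52% of all WT peaks, so a count of 0 among 23 peaks cannot be told from the background. The ER stress response element was in 1 of 23 WT peaks, the one at the Xbp1 start, beside 0.020% of all WT peaks. The STAT and BCL6 type palindrome TTCNNNGAA was in 3 of 23 WT and 3 of 15 LKO peaks, at Atf4, Atf6 and Xbp1, beside 6.56% and 6.39% of all peaks. A match is a description of letters within these windows and does not show that a factor was bound.

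**Figure D4:**
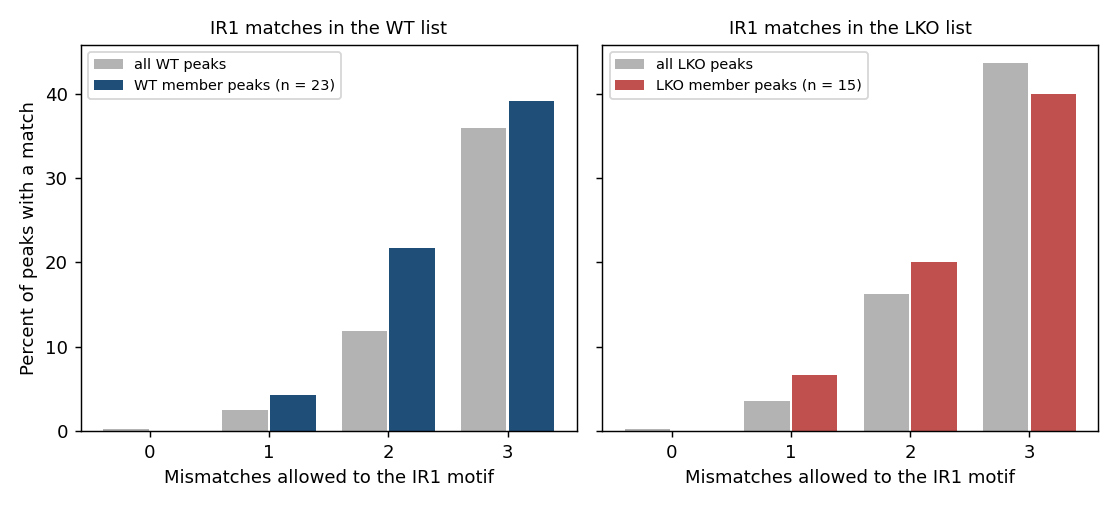
Percent of peaks (y axis) with a match to IR1 within 100 bp of the centre, by number of mismatches allowed (x axis), for all peaks (grey) and for the peaks of the 10 genes (colour) in WT (left) and LKO (right). At 2 mismatches the bars are 11.8% and 21.7% in WT, and in LKO the grey bar is 16.2% and the coloured bar stands for 3 of 15 peaks.

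FXR peaks also lay at other genes of the pathway. Of 55 further genes of the response, 31 were named for a WT peak (56.4%), 28 for an LKO peak (50.9%), 32 for either and 23 for none, beside the 34.4% and 26.3% of all protein-coding genes. These counts, and those by role, set no limit on the distance of a peak from the TSS. Within 20 kb of the TSS, 28 genes had a WT peak and 29 a peak in either list. The share of all protein-coding genes was not counted at this limit or for either list, so these counts have no background here. By role, peaks in WT and LKO were found at 9 and 9 of 12 genes of ER-associated degradation, which removes misfolded proteins, 11 and 9 of 17 chaperones and folding enzymes, 6 and 5 of 14 genes of the PERK and eIF2 branch, and 3 and 2 of 5 genes of the IRE1 branch. The ATF6 branch and its proteases had 1 and 2 of 3, and the relatives of Creb3l3 had 1 and 1 of 4, both at Creb3l2. The 36 shared peaks of these genes had a median LKO minus WT difference of 0.0034. LKO was above WT without overlap at 8 of them and below at 8, where 29.8% and 25.2% of all shared peaks were.

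The most WT peaks among these genes were named for Herpud1, a component of the degradation machinery, with 5 in WT and 4 in LKO. Creld2 and Dnajc3, both ER stress-induced folding factors, and Ppp1r15b, a regulatory subunit of the eIF2 phosphatase, tied at 4 WT peaks, with 3, 2 and 3 LKO peaks. At the strongest shared peak of Creld2, 17725 bp from its TSS, relative levels were 0.95 and 0.86 in WT and 1.56 and 1.74 in LKO, and at that of Dnajc3, in intron 1, they were 1.08 and 1.14 in WT and 1.62 and 1.24 in LKO. LKO was above both WT libraries at both, by 0.75 with a pooled SD of 0.10 and by 0.32 with a pooled SD of 0.19. At Ppp1r15b, 6798 bp upstream, WT had 0.84 and 1.11 and LKO had 1.43 and 0.79, which overlap. The strongest shared peak in WT was at Ero1lb, an ER oxidase that helps to form disulfide bonds, 14962 bp upstream of its TSS at chr13:12550816-12551026. Its relative levels were 2.92 and 3.21 in WT and 0.68 and 1.37 in LKO. Both LKO libraries were far below both WT libraries, by -2.04 with a pooled SD of 0.37, and the peak moved from percentile 99.6 of the WT list to 85.1 of the LKO list. At the strongest Herpud1 peak, 22297 bp upstream and inside another gene, at chr8:94364027-94364237, WT had 2.58 and 2.97 and LKO had 2.39 and 2.54, which do not overlap. The peak 1054 bp upstream of Cebpb, a liver-enriched transcription factor of the acute-phase and stress response, had 1.52 and 1.35 in WT and 0.90 and 1.19 in LKO, which do not overlap either. The Ero1lb, Herpud1 and Cebpb peaks were chosen for their strength in WT. The LKO means were 2.47 at Herpud1, 1.65 at Creld2, 1.43 at Dnajc3, 1.11 at Ppp1r15b, 1.04 at Cebpb and 1.02 at Ero1lb. The LKO libraries of the Ppp1r15b, Cebpb and Ero1lb peaks overlapped, so these peaks cannot be ranked in LKO.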

How the data were processed

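FXR was immunoprecipitated from liver chromatin crosslinked with disuccinimidyl glutarate and formaldehyde. Per the submitters' processing notes, the authors used mm10, Bowtie 1.2 and HOMER 4.10, and per the file headers they called peaks on pooled ChIP libraries against input and filtered them with DESeq2 at an adjusted p limit of 0.05 and a log2 fold limit of 1. The deposited per-library values are headed as tag counts but are not whole numbers and include negative ones, and were taken as regularized log2 values, which shrink low counts and were scaled within each table of 3 libraries. Peak Score, a deposited signal of pooled tags per 10000000, was not used for the results. The authors' fold changes and p-values against input were not used. The tables share no common scale, so no test between genotypes was run.

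Tags were estimated as 2 to the log2 value times the library total over the mean total of its table. Sequences, transcripts and gene bodies came from RefSeq for GRCm38.p6. The authors' TSS distances matched RefSeq within 2 bp for 33 of the 38 peaks, and the other 5 were at Creb3l3. Of the 55 further pathway genes, all were found in RefSeq by symbol or synonym. Motifs were sought on both strands in 201 bp windows. All genes received a count of peaks, and full values were given for each gene's strongest WT peak, or LKO peak where WT had none, and for peaks within 1 kb of the TSS. Of the further pathway genes, the 3 with the most WT peaks, ties in alphabetical order, and the 3 with the strongest shared WT peaks were named; Ppp1r15b, which tied for the most WT peaks, was added after its values were seen. Other peaks were described by position. The genes and lists were chosen with earlier results of these data known. Python 3.11.15 was used with pysam 0.24.0, pandas 2.3.3, numpy 2.4.6, matplotlib 3.10.9 and scipy 1.17.1, and the overlap, motif and centring steps were checked on simulated data. Alternatives changed the strength, tag and input limits, the overlap, the assignment, the scale, the motif limits and the libraries used.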

Additional observations from a re-analysis of the deposited data

How the results depend on the processing

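Shares of matched peaks stayed within their intervals under every alternative. Peak counts moved from 23 to 14 (WT) and from 15 to 8 (LKO) for peaks at or above the median strength, and to 15 WT peaks with at least 10 estimated tags in both libraries. IR1 with at most 1 mismatch was found in 4.35% of WT and 6.67% of LKO peaks, and with at most 3, a limit chosen after seeing the data, in 39.1% and 40.0%. The median difference at the 12 shared peaks was -0.27 on the deposited scale and -1.09 divided by the mean library total of each genotype. It was -0.42 centred on all peaks of each list. All shared peaks had -0.30, -1.12 and -0.45 on these scales. The median difference at the 12 peaks ranged from -0.011 to 0.15 when 1 library was left out. The scale is a constant shift of every peak, so 7 of the 12 peaks were above the median of all shared peaks on each. On these scales in the same order the difference became -0.17, -0.99 and -0.32 at the Creb3l3 exon 4 peak and -0.25, -1.07 and -0.40 at the Xbp1 start. Divided by the mean library total it became -0.34 at the Atf6 intron 6 peak and -0.51 at the Atf6 promoter. No paired analysis was possible because the labels name no pairs of WT and LKO libraries, and no result came from a test.

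WT replicate 2 limits the depth: its median peak held about 9.0 estimated tags, against 34.1 to 40.1 in the other ChIP libraries.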
